A study of Mus musculus with 45 samples.

Results

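The genes described here are 20 cytosolic aminoacyl-tRNA synthetase genes, 10 mitochondrial ones and 10 genes of the ATF4 stress response, listed by name. Of these 40 genes, 39 were found among the 29307 genes of the count table, and all 39 were tested; the mitochondrial synthetase gene Mars2 was not analysed here. They were measured in bone marrow-derived macrophages of C57BL/6N mice aged 6 to 10 weeks. Each mouse carried Famin p.254I, the version without disease risk, Famin p.254V, a version that carries disease risk, or Famin p.284R, the variant of a monogenic inflammatory disease. Famin, also called Lacc1, encodes a purine-metabolizing enzyme, and all 3 lines carry an engineered allele, so p.254I was the control. Marrow of 5 mice per genotype was cultured for 6 days with M-CSF. For a further 24 h the cells were then left unstimulated (M0), given IFN-γ at 50 ng/mL together with LPS at 20 ng/mL (M1), or given IL-4 at 20 ng/mL (M2). This gave 45 libraries in 9 groups of 5, and the 3 libraries that share a genotype and a number were read as cultures of a single mouse. All are cultures grown from whole marrow, without a sort.

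Aminoacyl-tRNA synthetases join each amino acid to its tRNA, most of them encoded by separate genes for the cytosol and for the mitochondrion. ATF4 is a transcription factor whose mRNA is translated when the initiation factor eIF2-alpha is phosphorylated, as happens in amino acid shortage, endoplasmic reticulum stress, viral infection or heme deficiency. It is known to bind a composite C/EBP-ATF element and to raise amino acid transporters, amino acid synthesis enzymes and many cytosolic synthetases. In macrophages, LPS and IFN-γ also change amino acid use, and Wars, the tryptophanyl-tRNA synthetase gene, is a known interferon-inducible gene.

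The members' promoters were searched for the core of that element, TGATGNAA, or its reverse complement TTNCATCA, in the 250 bases before and 50 bases after each RefSeq start (GRCm38.p6). Of the 40 listed genes, 33 had a window, and 9 of these held the core. It was found in 5 of 13 cytosolic synthetase genes, 0 of 10 mitochondrial ones and 4 of 10 ATF4 stress genes, against 4.51% of 27025 genes with a window. No entry was found for Cars, Hars, Lars, Nars, Rars, Vars and Wars. For each of these 9 genes 1 match is shown, since it is a place where the promoter carries the letters of the element, on the gene's own strand, with the match in capitals.
Aars, chr8:111033840-111033869, plus strand: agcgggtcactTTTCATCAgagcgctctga
Gars, chr6:55037960-55037989, plus strand: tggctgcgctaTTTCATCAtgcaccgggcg
Iars, chr13:49682126-49682155, plus strand: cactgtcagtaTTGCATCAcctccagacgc
Tars, chr15:11399655-11399684, minus strand: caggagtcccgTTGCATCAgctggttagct
Yars, chr4:129189895-129189924, plus strand: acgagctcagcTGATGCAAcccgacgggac
Atf3, chr1:191183425-191183454, minus strand: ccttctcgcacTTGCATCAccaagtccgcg
Asns, chr6:7693214-7693243, minus strand: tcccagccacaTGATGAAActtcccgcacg
Trib3, chr2:152344028-152344057, minus strand: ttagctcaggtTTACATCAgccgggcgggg
Chac1, chr2:119351038-119351067, plus strand: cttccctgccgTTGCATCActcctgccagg
The middle of the match lay 26 bases before the start in Gars, 11 before in Tars, 19 before in Asns, 106 before in Atf3 and 189 before in Chac1. It lay after the start by 13 bases in Aars, 11 in Iars, 7 in Yars and 18 in Trib3. A match is a run of letters, and binding was not measured.

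Total counts per library ranged from 17239009 to 43740283, and levels below are CPM, reads scaled to the library's total with TMM factors, of which 1 CPM stood for 17.2 to 43.7 reads. The macrophage markers Adgre1, Csf1r, Cd68, Itgam, Mertk and Fcgr1 summed to between 5432 and 11010 CPM in every library. The M1 markers summed to 11190 to 16020 CPM in M1 and to at most 289 elsewhere, although Il12b stayed at or below 0.201 CPM in M1. The M2 markers summed to 4929 to 14810 CPM in M2 and to at most 914 elsewhere. Of the other cell types, neutrophil markers summed to 13.0 to 204 CPM, fibroblast markers to 6.32 to 84.6 CPM, and B cell and mast cell markers to at most 0.487 and 0.320 CPM. The T cell list summed to 2.52 to 46.7 CPM, nearly all of it Cd4, and dendritic cell markers to 0.469 to 12.7 CPM. Neutrophil, fibroblast and T cell marker medians were lower in M1 and M2 than in M0, and dendritic cell marker medians were higher; their part in the results below was not tested.

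Per length, the synthetase genes differed in level by more than polarization moved most of them. In M0, Nars (asparagine) had the highest median of the cytosolic genes, 59.5 CPM per kb of exon, and Yars (tyrosine) was the lowest. In M1 Wars rose past all of them, to 152 CPM per kb, from 14.7 in M0. In M2 Rars (arginine) reached 55.2 CPM per kb, beside 52.9 for Nars, and the ranges of both overlapped. Among mitochondrial genes Lars2 (leucine) stood at 41.2 CPM per kb in M0, Iars2 (isoleucine) at 8.49 and Nars2 at 0.858. Exon length here is the union of all annotated exons, which understates genes with long, rarely used exons.

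**Figure D1:**
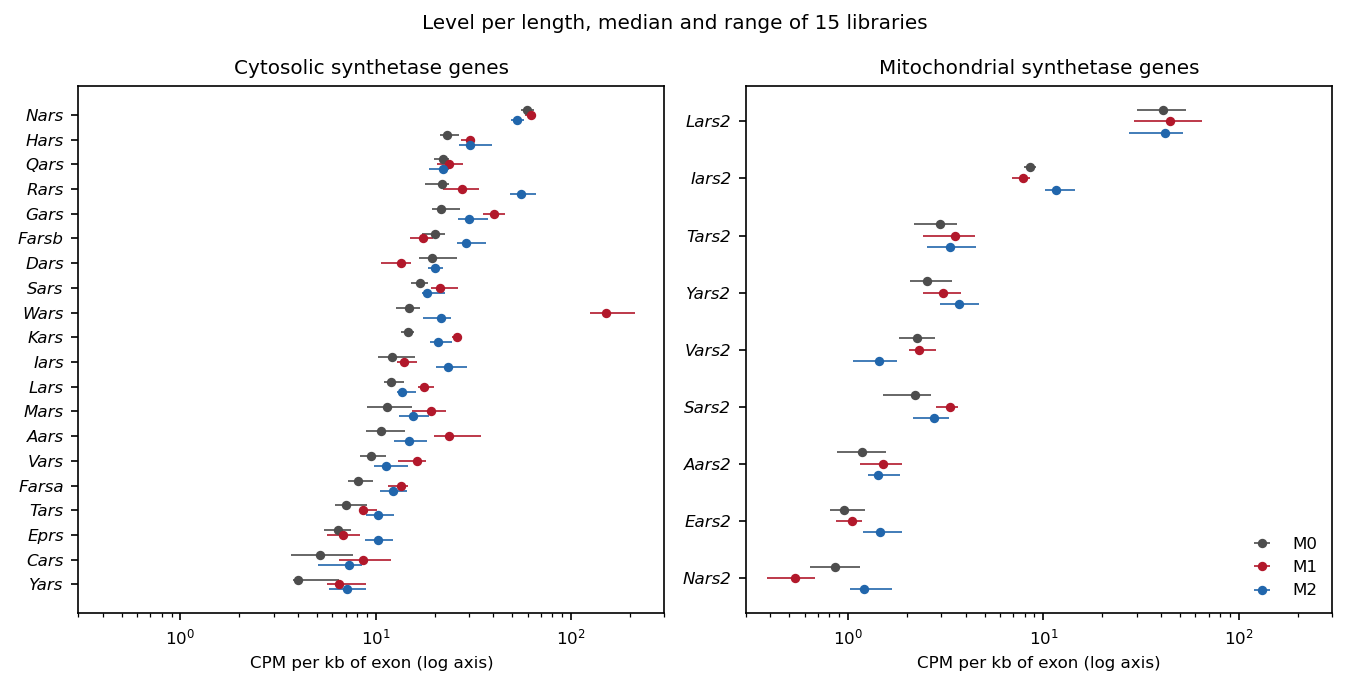
Level of each synthetase gene in CPM per kb of exon on a log axis, with the median (point) and the lowest and highest value (line) of the 15 M0, 15 M1 and 15 M2 libraries. Wars in M1, at a median of 152, and Lars2, at 41.2 in M0, stand apart from the rest of their classes.

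The first comparison asked how polarization to M1 moved the genes, as a mean over the 3 genotypes. M1 cultures had more mRNA of 17 of 20 cytosolic synthetase genes and 8 of 10 ATF4 stress genes than M0 cultures, while the 9 mitochondrial genes were split. Wars rose 10.6-fold, Psat1 3.79-fold, Trib3 3.56-fold, Ddit3 2.35-fold and Aars 2.20-fold. Of the cytosolic genes, Dars and Farsb fell and Eprs did not pass the test; of the mitochondrial genes, 4 rose, 2 fell and 3 did not pass; of the ATF4 stress genes, Atf3 fell and Phgdh did not pass. Of all 12905 genes tested, 77.3% were called at an adjusted p under 0.05 by edgeR's quasi-likelihood test, 37.0% higher and 40.3% lower, so a call in itself was common. The median log2 fold change was 0.47 over the cytosolic genes, 0.11 over the mitochondrial genes and 0.67 over the ATF4 stress genes, beside -0.03 over all genes tested. In RNA of a whole culture, more RNA per cell and more cells of a type cannot be told apart.

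**Figure D2:**
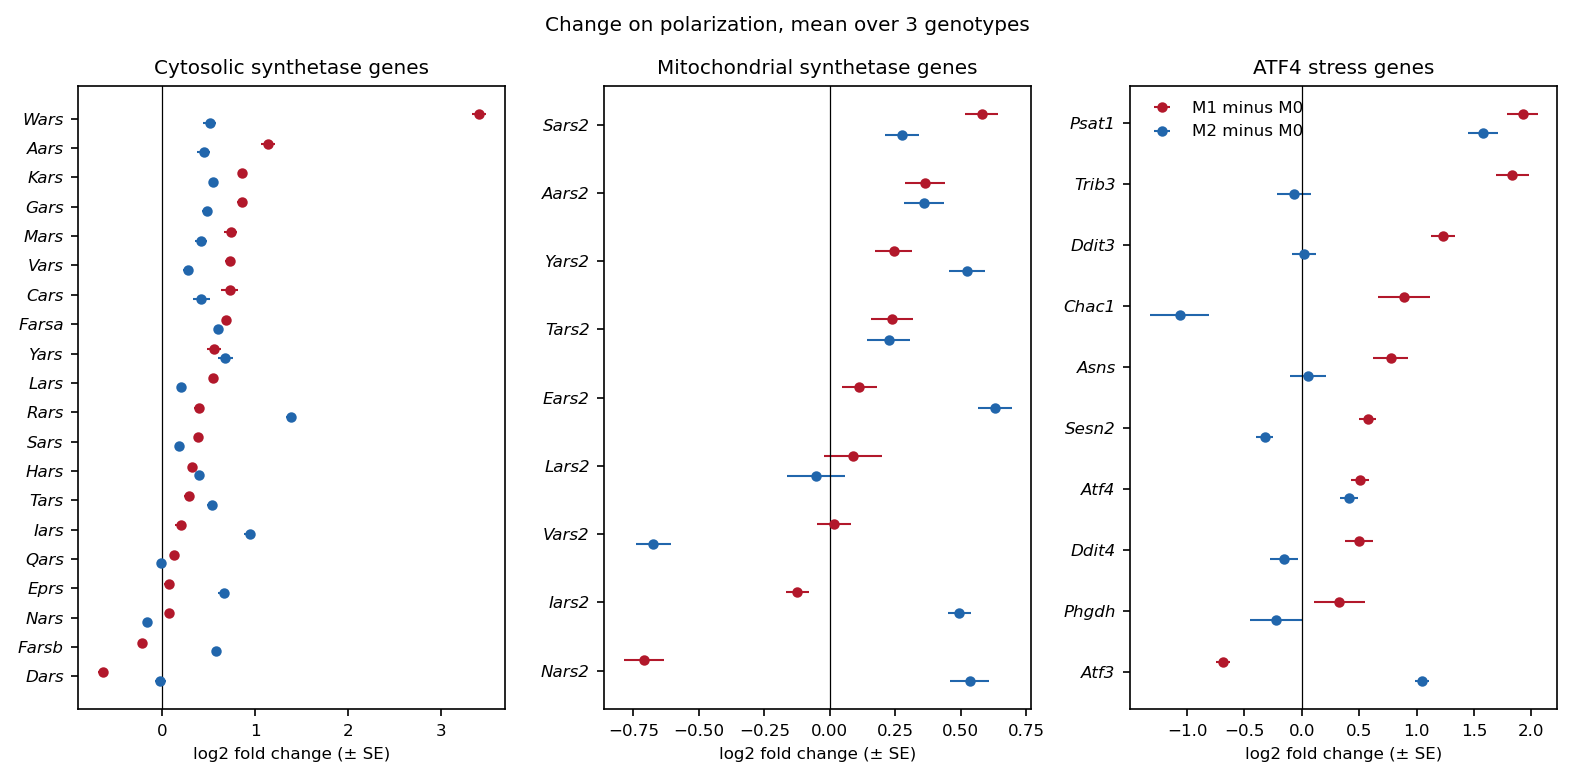
Log2 fold change from M0 to M1 (red) and from M0 to M2 (blue) with its standard error, as a mean over 3 genotypes, for the 20 cytosolic synthetase genes, 9 mitochondrial synthetase genes and 10 ATF4 stress genes. Wars at 3.41 in M1 lies far to the right of the other cytosolic genes, and Atf3, Nars2 and Chac1 lie on opposite sides of 0 in M1 and M2.

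Wars (chr12:108860030-108894174 on the minus strand of GRCm38) ranged from 43.9 to 58.3 CPM in M0, with a median of 50.7, from 432 to 728 CPM in M1, with a median of 522, and from 60.1 to 84.0 CPM in M2, with a median of 74.1. All 15 M1 libraries thus lay above all others, and all M2 libraries above all M0 libraries. Its log2 fold change was 3.41 in M1 (SE 0.07, adjusted p = 1.49e-33, edgeR) and 0.51 in M2 (SE 0.07, adjusted p = 1.29e-08, edgeR). The rise to M1 was 3.41, 3.52 and 3.31 on the log2 scale in Famin p.254I, p.254V and p.284R. Without Wars, the other 19 cytosolic synthetase genes summed to a median of 1470 CPM in M0, 1905 in M1 and 1904 in M2.

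Aars, the alanyl-tRNA synthetase gene, had the next largest rise in its class. It ranged from 82.3 to 132 CPM in M0 (median 98.2), from 185 to 322 CPM in M1 (median 220) and from 115 to 169 CPM in M2 (median 137). Its log2 fold change in M1 was 1.14 (SE 0.07, adjusted p = 1.23e-17, edgeR). Kars and Gars, the lysyl and glycyl synthetase genes, each of which also supplies the mitochondrial enzyme, rose by 0.86 each in M1 and by 0.55 and 0.48 in M2. Mars, Vars, Cars, Farsa, Yars, Lars, Rars, Sars, Hars, Tars, Iars, Qars and Nars rose in M1 by 0.07 to 0.74 on the log2 scale. All M1 libraries lay above all M0 libraries for 10 of the 20 genes (Aars, Farsa, Gars, Hars, Kars, Lars, Mars, Sars, Vars and Wars), as they did for 15.2% of all genes tested.

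Dars, the aspartyl-tRNA synthetase gene, went the other way. Its level ranged from 72.7 to 113 CPM in M0, from 46.5 to 66.0 CPM in M1 and from 80.1 to 96.4 CPM in M2, so the M1 libraries lay below all others. The log2 fold change was -0.64 in M1 (SE 0.06, adjusted p = 2.59e-13, edgeR) and -0.02 in M2 (SE 0.06, adjusted p = 0.749, edgeR). All M1 libraries lay below all M0 libraries for 13.5% of all genes tested, and Dars was the only such synthetase gene. Farsa and Farsb encode the alpha and beta subunits of a single enzyme, phenylalanyl-tRNA synthetase, and parted in M1, where Farsa rose by 0.68 and Farsb fell by 0.21 on the log2 scale. The ratio of Farsa to Farsb CPM was 0.659 to 0.812 in M0 and 0.649 to 0.862 in M2 but 1.03 to 1.52 in M1, with no overlap. Eprs, the gene of the fused glutamyl- and prolyl-tRNA synthetase, had a log2 fold change of 0.07 in M1 (SE 0.06, adjusted p = 0.215, edgeR).

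**Figure D3:**
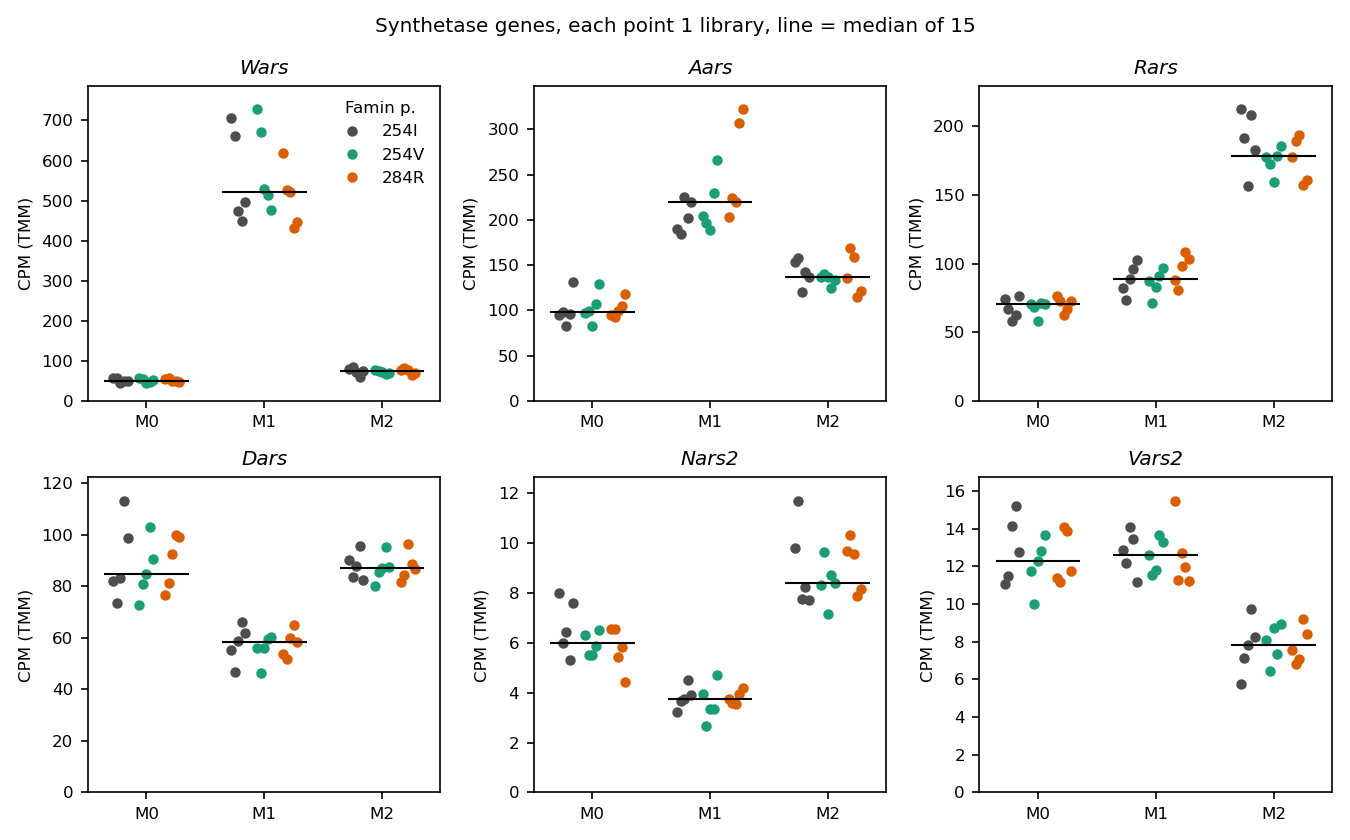
CPM of 6 synthetase genes in each of the 45 libraries, coloured by Famin genotype, with the median of 15 as a line and each vertical axis from 0. Wars is high in M1, Rars in M2 and Dars low in M1, Nars2 falls in M1 and rises in M2, and Vars2 falls in M2, while the 3 genotypes overlap in each polarization.

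Polarization to M2, compared with the same M0 libraries, gave a different order of synthetase genes. Of the cytosolic genes 17 of 20 rose, 1 (Nars) fell and 2 (Qars and Dars) did not pass; of the mitochondrial genes 7 of 9 rose, Vars2 fell and Lars2 did not pass. Of all genes tested 76.4% were called, 36.8% higher and 39.6% lower, and the median log2 fold change was 0.46 over the cytosolic genes, 0.36 over the mitochondrial genes and -0.03 over all genes. Rars ranged from 57.9 to 76.7 CPM in M0 (median 70.6), from 71.1 to 108 CPM in M1 (median 88.9) and from 157 to 213 CPM in M2 (median 178). The M2 libraries lay above all others, with a log2 fold change of 1.39 over M0 (SE 0.05, adjusted p = 3.26e-24, edgeR). Iars (isoleucine) rose by 0.94, Yars by 0.68 and Eprs by 0.66. All M2 libraries lay above all M0 libraries for 8 of 20 cytosolic genes (Eprs, Farsa, Farsb, Hars, Iars, Kars, Rars and Wars), beside 13.6% of all genes tested. Qars (glutamine) had a log2 fold change of -0.01 in M2 (SE 0.04, adjusted p = 0.796, edgeR).

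Set directly against each other, M1 and M2 differed in 17 of 20 cytosolic genes, 11 higher in M1 and 6 higher in M2, while 79.1% of all genes tested were called (39.0% higher and 40.1% lower in M1). Wars, Aars, Lars and Nars were higher in every M1 library than in any M2 library, as 17.6% of all genes tested were, and Dars, Eprs, Farsb, Iars and Rars were lower in every M1 library than in any M2 library, as 18.1% were. For Rars the log2 difference of M1 from M2 was -0.9998 (SE 0.05) and for Wars it was 2.90 (SE 0.07). Farsa, Hars and Yars did not pass, with differences of 0.09, -0.07 and -0.12.

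The mitochondrial synthetase genes were mostly low and moved both ways. Their median log2 fold change was 0.11 in M1 and 0.36 in M2, beside 0.47 and 0.46 over the cytosolic genes. Nars2 (asparagine) ranged from 4.44 to 7.98 CPM in M0, from 2.66 to 4.72 CPM in M1 and from 7.15 to 11.7 CPM in M2. Its M1 and M2 ranges were apart, though each overlapped with M0, and its log2 fold change was -0.71 in M1 (SE 0.08, adjusted p = 6.50e-11, edgeR) and 0.54 in M2 (SE 0.07, adjusted p = 2.93e-08, edgeR). Iars2 also fell in M1 (by 0.12) and rose in M2 (by 0.49). Vars2 (valine) ranged from 9.99 to 15.2 CPM in M0 and 11.2 to 15.5 in M1 but from 5.76 to 9.74 in M2, below all M0 libraries, as 9.78% of all genes tested were. Its log2 fold change was 0.02 in M1 (SE 0.07, adjusted p = 0.843, edgeR) and -0.67 in M2 (SE 0.07, adjusted p = 9.58e-12, edgeR). Sars2 (serine) rose by 0.58 in M1 and 0.27 in M2, and in M1 every library lay above the M0 range. Aars2 and Yars2 rose by 0.36 and 0.24 in M1 and by 0.36 and 0.52 in M2, and Tars2 by 0.24 and 0.22. Ears2 (glutamate) rose by 0.63 in M2, and in M1 its value of 0.11 did not pass (SE 0.07, adjusted p = 0.114, edgeR).

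Lars2 was called in no polarization comparison without a block, with log2 differences of 0.09 for M1 and -0.05 for M2 (SE 0.11 each). Between M1 and M2 its difference was 0.14 (SE 0.11, adjusted p = 0.250, edgeR), and with the mouse as a block it was called, at 0.13 (SE 0.06, adjusted p = 0.0490, edgeR). Its standard errors were the largest of the synthetase genes, and it ranged from 333 to 595 CPM in M0, 321 to 722 CPM in M1 and 305 to 572 CPM in M2. Because Lars2 outweighs the rest, the 9 mitochondrial genes summed to medians of 609, 641 and 659 CPM in M0, M1 and M2, and the 8 others to 140, 143 and 178 CPM. The range of those 8 was 163 to 212 CPM in M2 against 126 to 155 in M0. Much of this sum was Iars2, the highest of the 8, at 90.1 to 128 CPM in M2 against 70.3 to 81.9 CPM in M0.

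More of the ATF4 stress genes were called in M1 than in M2. In M1 8 of 10 rose and 1 fell, beside 37.0% and 40.3% of all genes tested. In M2 3 of 10 rose, 2 fell and 5 did not pass, beside 36.8% and 39.6% of all genes that rose and fell. The median log2 fold change in M2 was -0.02 beside -0.03 over all genes. Atf3 and Chac1 moved further from M0 in M2 than in M1. Between M1 and M2, 8 of 10 were higher and 1 lower in M1, beside 39.0% and 40.1% of all genes. The 10 genes summed to medians of 808, 863 and 1576 CPM in M0, M1 and M2. Atf3 alone was 973 to 1292 CPM in M2. Atf4 itself, the transcription factor gene, ranged from 92.4 to 164 CPM in M0 (median 112), 127 to 239 CPM in M1 (median 163) and 131 to 182 CPM in M2 (median 161). It rose by 0.51 in M1 (SE 0.08, adjusted p = 4.49e-07, edgeR) and by 0.41 in M2 (SE 0.08, adjusted p = 1.87e-05, edgeR), and the ranges overlapped. M1 and M2 differed by 0.10 (95% interval -0.06 to 0.26). The ATF4 protein, which is set largely by translation, was not measured.

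Trib3, a pseudokinase gene induced by ATF4 and CHOP, ranged from 2.21 to 5.84 CPM in M0, 9.07 to 25.8 CPM in M1 and 2.85 to 5.29 CPM in M2. Every M1 library lay above every other library, and the log2 fold change was 1.83 in M1 (SE 0.14, adjusted p = 7.39e-15, edgeR) and -0.07 in M2 (SE 0.15, adjusted p = 0.667, edgeR). Ddit3, which encodes the transcription factor CHOP, had medians of 29.3, 76.7 and 30.4 CPM in M0, M1 and M2. Its M0 range of 24.8 to 65.9 CPM overlapped the M1 range of 47.62 to 95.02 CPM through a single p.254I library at 65.9. The rise to M1 was 1.23 on the log2 scale (SE 0.11, adjusted p = 1.48e-13, edgeR), and in M2 the value was 0.02 (SE 0.11, adjusted p = 0.859, edgeR). Ddit3 and Mars lie on opposite strands of chromosome 10 and their gene bodies share 68 bases; whether strand was used in counting is not given in the sources used here.

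Asns, the asparagine synthetase gene, ranged from 8.84 to 30.2 CPM in M0 (median 12.9), 19.1 to 43.1 CPM in M1 (median 24.5) and 11.8 to 25.3 CPM in M2 (median 16.1). It rose by 0.78 in M1 (SE 0.15, adjusted p = 2.10e-05, edgeR), with ranges that overlapped, and its value in M2 was 0.06 (SE 0.15, adjusted p = 0.751, edgeR). Psat1, an enzyme gene of serine synthesis, was the ATF4 stress gene that rose most in both polarizations. It ranged from 19.2 to 74.4 CPM in M0, 122 to 227 CPM in M1 and 88.4 to 172 CPM in M2, all above M0, with log2 fold changes of 1.92 (SE 0.13) and 1.58 (SE 0.13). Phgdh, which encodes the preceding enzyme of the same pathway, stayed at 0.391 to 3.28 CPM throughout and did not pass in M1 (0.33, SE 0.22, adjusted p = 0.172, edgeR) or M2 (-0.23, SE 0.23, adjusted p = 0.365, edgeR). Between M1 and M2 it was called, at 0.55 (SE 0.22, adjusted p = 0.0241, edgeR), but not without replicate 2 of p.254I, p.254V or p.284R (0.44, 0.43 and 0.41).

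Chac1, a glutathione-degrading enzyme gene, was close to the limit of detection. It ranged from 0.271 to 1.23 CPM in M0 (6 to 47 reads), 0.752 to 2.55 CPM in M1 (19 to 86 reads) and 0 to 0.541 CPM in M2 (0 to 15 reads). A single M2 library had 0 reads, which allows up to 0.138 CPM as counting error only. Every M1 library lay above every M2 library, and the log2 fold change was 0.89 in M1 (SE 0.23, adjusted p = 0.000495, edgeR) and -1.06 in M2 (SE 0.26, adjusted p = 0.000355, edgeR). Atf3, a transcription factor gene of the same family as Atf4, was the reverse, at 476 to 687 CPM in M0, 278 to 398 CPM in M1 and 973 to 1292 CPM in M2. Its log2 fold change was -0.69 in M1 (SE 0.06, adjusted p = 4.08e-14, edgeR) and 1.05 in M2 (SE 0.06, adjusted p = 1.66e-19, edgeR), and the 3 ranges did not overlap. Sesn2 and Ddit4 encode inhibitors of mTORC1 signalling. Sesn2 rose by 0.57 in M1 and fell by 0.32 in M2, and Ddit4 rose by 0.50 in M1 and did not pass in M2 (-0.15, SE 0.12, adjusted p = 0.247, edgeR).

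**Figure D4:**
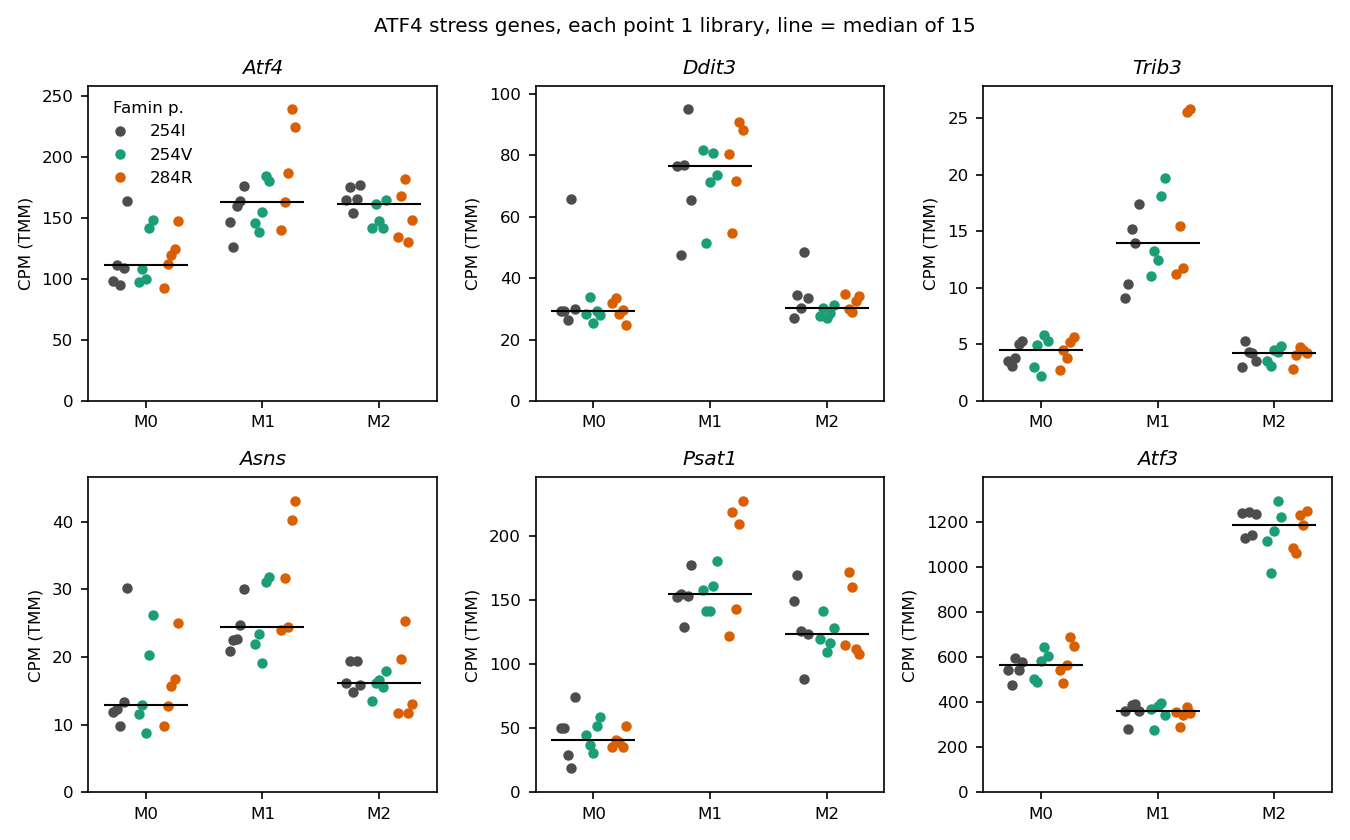
CPM of 6 ATF4 stress genes in each of the 45 libraries, coloured by Famin genotype, with the median of 15 as a line and each vertical axis from 0. Trib3 and Ddit3 are high in M1 and near their M0 level in M2, Psat1 is high in both, and Atf3 is lowest in M1 and highest in M2.

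Other genes of the pathway were counted from lists. A list of 8 genes held those for eIF2-alpha, its kinases and its phosphatase subunits, and Gcn1l1. Of these 8, 4 rose and 1 fell in each of M1 and M2, where 77.3% and 76.4% of all genes tested were called. Eif2ak2, the interferon-inducible kinase PKR, rose by 0.99 in M1 and fell by 0.47 in M2, and Ppp1r15b, a phosphatase subunit gene, rose by 1.11 and 0.43. Eif2ak1 rose by 0.33 in M1, and Eif2s1, eIF2-alpha itself, by 0.51 in M2. Of 25 further ATF4 targets tested of 27 in the tables, 12 rose and 12 fell in M1, and 10 rose and 8 fell in M2. Over all genes tested, 37.0% rose and 40.3% fell in M1, and 36.8% rose and 39.6% fell in M2. The median log2 fold change of these targets was 0.02 in M1 and 0.13 in M2, beside -0.03 over all genes in each. Slc7a11, the cystine transporter gene, went from a median of 6.72 CPM in M0 to 1.04 in M1 and 26.9 in M2, with log2 fold changes of -2.12 (SE 0.26) and 2.56 (SE 0.22). Slc1a4, a transporter gene for alanine and serine, rose by 2.14 in M1, Slc1a5, for glutamine, rose by 1.65 in M2, and Vldlr, a lipoprotein receptor gene, fell by 2.40 in M1 and 1.61 in M2.

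Of 18 genes of the endoplasmic reticulum chaperones and the unfolded protein response, 14 rose and 2 fell in M1, and 13 rose and 2 fell in M2, beside 37.0% and 36.8% of all genes that rose. Their median log2 fold change was 0.52 in M1 and 0.64 in M2, beside -0.03 over all genes. Manf, Pdia6 and Creld2 rose by 0.96, 0.88 and 0.88 in M1, and Pdia4, Sdf2l1 and Creld2 by 1.61, 1.46 and 1.29 in M2. Of the 3 scaffold genes of the multi-synthetase complex, Aimp1 rose by 0.28 and 0.24, while Aimp2 and Eef1e1 rose in M2 (0.68 and 0.86) and did not pass in M1 (-0.03 and -0.21). Of the 7 remaining mitochondrial synthetase genes, 3 rose in M1, beside 37.0% of all genes. In M2 2 of the 7 rose and 2 fell, beside 36.8% and 39.6% of all genes. Among the 7, Wars2 rose by 0.14 and 0.59, Fars2 rose by 0.31 in M1, and Rars2 rose by 0.32 and Pars2 fell by 0.14 in M2.

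The second set of comparisons asked whether the Famin genotype moved these genes. No member was called between genotypes in M0, M1 or M2, over the summed cultures of each mouse, or in an interaction of genotype with polarization (edgeR), nor by DESeq2 or limma-voom. Before adjustment, 4 members had a p under 0.05 for p.284R against p.254I in M1 (Chac1, Aars, Atf4 and Qars), 2 for p.254V against p.254I in M2 (Farsa and Yars2) and 0 in each of the other comparisons. The share of all genes with a p under 0.05 before adjustment is not given here, so these counts are not read as an excess. After adjustment, the share of all genes called was 0.263% for p.284R against p.254I in M1, 0.00775% in M2 and 0% in the rest. For Wars the p.284R and p.254I groups differed by -0.13 on the log2 scale in M1 (95% interval -0.36 to 0.10), with 619, 526, 522, 432 and 446 CPM in p.284R and 707, 661, 475, 449 and 497 CPM in p.254I, in the order of replicate number. Over mice, the log2 differences of members from p.254I lay between -0.22 (Wars) and 0.54 (Chac1) for p.284R and between -0.15 (Ddit3) and 0.11 (Ddit4) for p.254V.

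Libraries with the same replicate number but different genotypes deviated together in M0 and M1, so p.284R and p.254I were also compared within numbers. With the replicate number as a block, 3 members passed in M1, beside 2.66% of all genes tested (1.56% higher and 1.10% lower): Aars and Atf4 were higher and Qars lower in p.284R. Aars had 190, 185, 225, 202 and 220 CPM in p.254I and 203, 224, 220, 307 and 322 CPM in p.284R, from number 1 to 5. The ranges overlapped, and p.284R was higher within 4 of 5 numbers, with the largest differences in numbers 4 and 5. Its log2 difference was 0.32 without the block (SE 0.12, adjusted p = 0.530, edgeR) and 0.30 with it (SE 0.08, adjusted p = 0.0419, edgeR).

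Atf4 had 147, 127, 160, 164 and 176 CPM in p.254I and 140, 163, 187, 239 and 225 CPM in p.284R in M1. It was higher within 4 of 5 numbers, and its log2 difference was 0.30 without the block (SE 0.14, adjusted p = 0.684, edgeR) and 0.29 with it (SE 0.08, adjusted p = 0.0350, edgeR). Qars had 183, 164, 153, 158 and 154 CPM in p.254I and 163, 145, 149, 135 and 141 CPM in p.284R, lower within all 5 numbers. Its log2 difference was -0.15 with either fit (SE 0.06, adjusted p = 0.635 without and SE 0.03, adjusted p = 0.00986 with the block, edgeR). Asns, Trib3, Chac1 and Psat1 did not pass in either fit; Asns was higher in p.284R within 5 of 5 numbers, by 0.11 to 0.70 on the log2 scale, and the other 3 within 4 of 5. Other ATF4 stress genes went the other way or were split: Ddit4 was lower in p.284R within 4 of 5 numbers, by up to 0.78 on the log2 scale, Atf3 within 4 of 5 and Sesn2 within 3 of 5, while Ddit3 and Phgdh were higher within 3 of 5. Of the cytosolic synthetase genes, Cars, Rars, Sars and Tars were also higher in p.284R within 5 of 5 numbers. Farsa, Gars, Iars, Lars, Nars, Vars and Yars were higher within 4 of 5. Farsb and Wars were lower within 4 of 5, and Dars, Eprs, Hars, Kars and Mars were split. None of these passed in either fit, and the share of all genes with such a lean was not counted. In M0 and M2 and for p.254V no member passed with the block, nor did any over the summed cultures of each mouse, where the smallest adjusted p with the block was 0.364 for p.284R and 0.943 for p.254V (edgeR). The M1 markers moved with this result, at 12930 to 16020 CPM in p.284R and 11190 to 13270 CPM in p.254I in M1, and their part in it was not tested. The interaction of p.284R with M1 was 0.30 for Aars (95% interval -0.04 to 0.65), 0.26 for Atf4 (-0.13 to 0.65) and -0.13 for Qars (-0.30 to 0.05), so a difference from M0 was not shown.

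**Figure D5:**
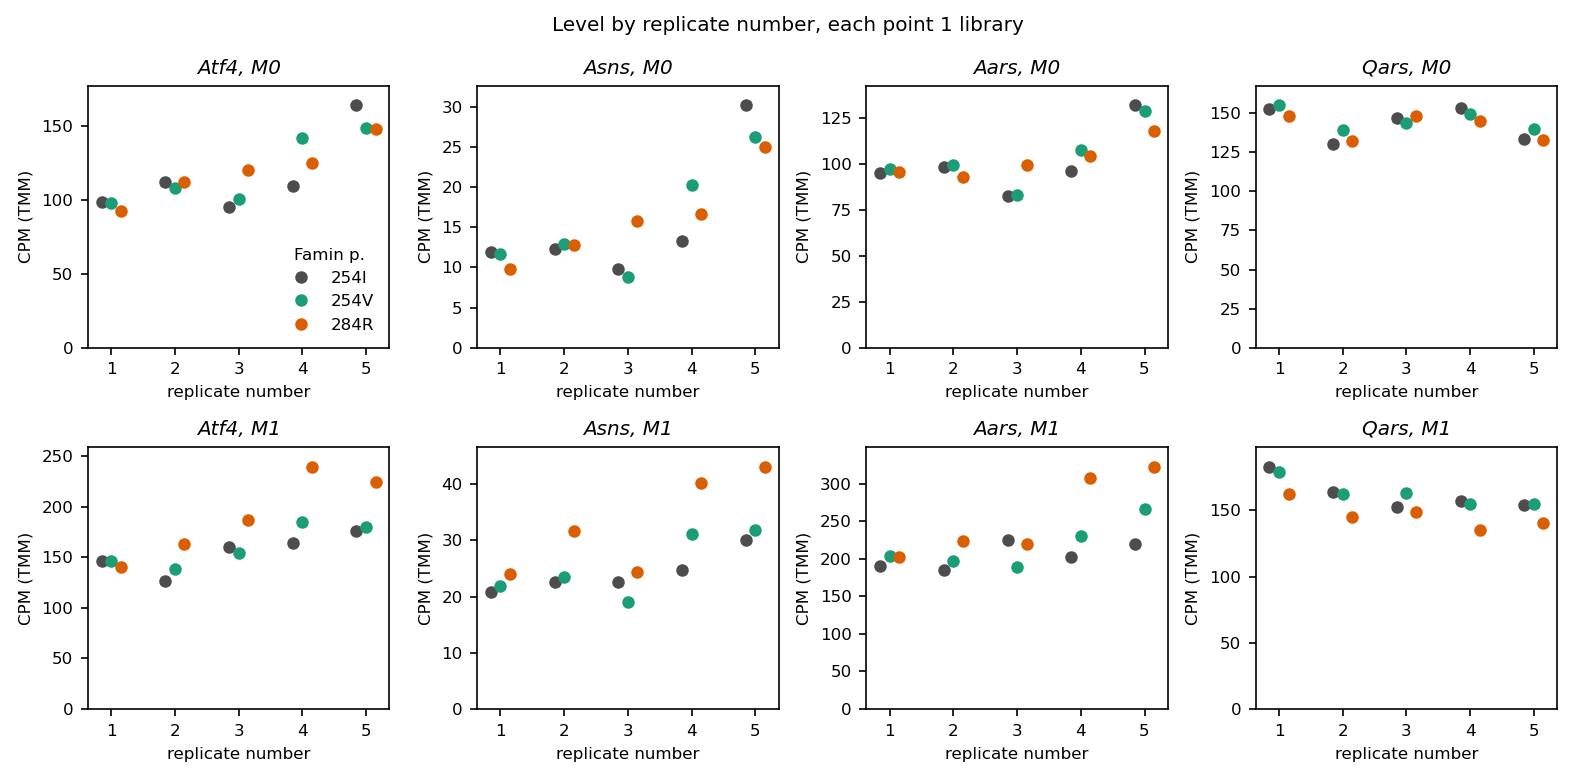
CPM of Atf4, Asns, Aars and Qars in M0 (top) and M1 (bottom) by replicate number, each point a library coloured by Famin genotype, with each vertical axis from 0. In M0 the libraries of number 5 are the highest of all 3 genotypes for Atf4, Asns and Aars, and in M1 p.284R lies below p.254I in all 5 numbers for Qars and above it in numbers 4 and 5 for the others.

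The replicate number went with differences in several ATF4 stress genes and several cytosolic synthetase genes of unstimulated cells, given here as a description. In M0, Asns was 25.0 to 30.2 CPM in the 3 libraries of number 5 and 8.84 to 20.3 CPM in the other 12. Atf4 was 148 to 164 CPM in number 5 and at most 142 CPM elsewhere, Psat1 52.1 to 74.4 against at most 51.6 CPM, Chac1 0.975 to 1.23 against at most 0.860 CPM, and Aars 118 to 132 against at most 107 CPM. All 5 genes were thus highest in number 5 in each of the 3 genotypes. Cars, Eprs, Farsa, Farsb, Gars and Tars were also higher in every library of number 5 than in any other M0 library. The margin was small for some, as Farsa was 39.8 to 43.8 against at most 39.6 CPM, and the other cytosolic synthetase genes overlapped. The share of all genes tested that were highest in number 5 was not counted. Over all genes compared, libraries of the same number deviated together in 15 of 15 pairs in M0. In M2 number 5 was not the highest for the genes named here, as Asns was 13.1 to 18.0 CPM in number 5 and 11.8 to 25.3 CPM elsewhere. The other ATF4 stress genes did not share 1 direction in M0. Phgdh was 1.80 to 2.81 CPM in number 5 against at most 1.63 CPM elsewhere. Ddit4 was lowest in number 5, at 3.34 to 3.56 against at least 3.80 CPM. Sesn2, Ddit3, Trib3 and Atf3 in number 5 overlapped the other M0 libraries, and Sesn2 had its lowest mean there. In the M0 libraries of number 5, macrophage markers summed to 7691 to 8225 CPM against at least 8746 CPM in the other M0 libraries, and neutrophil markers to 19.4 to 29.5 CPM, against 23.9 to 204 CPM; their part in these levels was not tested. The sources used here do not say what the number stands for, such as a litter, a day or a lane.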

How the data were processed

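Per the labels and the methods, stranded poly(A) libraries were sequenced and the authors trimmed reads with Trim Galore and aligned them with HISAT2 to mm10. The tool and annotation used for counting, and its use of strand, are not given in the sources used here. The authors deposited counts, whole reads per gene without normalization, for 29307 genes, and CPM for 11900 genes. Reads recovered from the deposited CPM equalled the counts for 100% of values within 0.01 reads. The CPM were used only for that alternative. Groups came from the sample titles.

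Genes and coordinates were taken from GENCODE M21. Exons of 11 members overlap those of another gene (Aars, Cars, Farsb, Hars, Mars, Yars, Ears2, Iars2, Nars2, Vars2 and Ddit3), so reads could be shared. Counts were scaled by TMM (factors 0.939 to 1.10) and filtered by filterByExpr over the 9 groups (12905 genes, or 13555 for counts summed per mouse). They were fitted in R 4.3.3 with edgeR 4.0.16 (glmQLFit with robust dispersions, glmQLFTest) over all 45 libraries, with Benjamini-Hochberg adjustment over all genes tested and a threshold of 0.05. M1 and M2 were compared with the same M0 libraries, and p.254V and p.284R with the same p.254I libraries. The 95% intervals follow from the fitted SE. The scripts were tested on simulated counts. Levels per kb divide CPM by the union of exons.

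Alternatives were DESeq2 size factors, DESeq2 1.42.0, limma-voom (limma 3.58.1), at least 10 counts per library or no filter at all, only the libraries compared, a replicate block, each mouse left out and, added after seeing the data, the recovered reads. Libraries of the same number deviated together in 15 of 15 pairs in M0 (r from 0.11 to 0.88 over 8614 genes) and M1 (0.28 to 0.87) and in 13 of 15 pairs in M2 (-0.43 to 0.78); cultures of the same mouse did so in 38 of 45 pairs. The members and lists were chosen with earlier results of these data known. Genes named with values were Atf4, Ddit3, Asns, Trib3, Chac1 and Wars, the 4 members of each class with the largest change in M1 and in M2, members called by genotype or not called, and the 3 largest changes in each further list; Farsa, Farsb, Nars, Iars2, Tars2 and Sesn2, and others in short lists, were named after their values were seen. The gene Cebpb of the list of further targets was not analysed here, and 1 gene of the further lists and 1 promoter match are not reported here.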

Additional observations from a re-analysis of the deposited data

Results flagged for a closer look

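A test of the highest or lowest of 5 libraries (Dixon's ratio at its 95% critical value) was applied to 9 genes in 9 groups each, 81 in all, of which chance would mark about 1 in 20, or 4.05; 6 were marked. In unstimulated p.254I cells, replicate 5 was the highest for Asns (30.24 CPM, the next at 13.3), Atf4 (163.7 CPM, the next at 111.7) and Chac1 (1.119 CPM, the next at 0.4062), and it belongs to the number at which the other genotypes were also high. Replicate 4 of the same group had Ddit3 at 65.94 CPM, with 26.44 to 29.97 CPM in the other 4. The M2 culture of that mouse had 48.48 CPM and its M1 culture 95.02 CPM, each the highest of its group, while its Psat1 was the lowest of all M0 libraries, at 19.2 CPM. In M2 cells of p.284R, Chac1 was highest in replicate 3 (0.5407 CPM) and Qars lowest in replicate 2 (126.0 CPM, the next at 143.1). For none of the genes tested did every library of a genotype move one way and every library of another genotype the opposite way.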

How the results depend on the processing

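Counts of called members kept within 1.5 times their value under every alternative, apart from 2. With at least 10 counts in every library Chac1 was no longer tested, and 1 ATF4 stress gene fell in M2 in place of 2. With the replicate block, which takes the number as paired, 3 members were called for p.284R against p.254I in M1 in place of 0, at 0.2978 for Aars, 0.2859 for Atf4 and -0.1467 for Qars on the log2 scale. The block on the mouse gave 34, 31 and 33 called members for M1 against M0, M2 against M0 and M1 against M2, beside 34, 31 and 32 without it. The added call was Lars2, at 0.13, and no other polarization call of a member changed. Leaving out each mouse gave 0 called members for p.284R in M1 throughout and, for M1 against M0, 4 to 5 mitochondrial and 8 to 9 ATF4 stress genes called higher.

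Values near 0 that did not pass changed sign. Aars2 in M1 against M2 went to -0.0048 with at least 10 counts, -0.0034 with recovered reads and between -0.0368 and 0.0417 without single mice. Vars2 in M1 against M0 went to -0.0023 with at least 10 counts and -0.0118 without p.284R replicate 1, with 0.0383 at most without single mice. Asns in M2 went from -0.0171 without p.284R replicate 3 to 0.2001 without p.254I replicate 5. Qars in M2 went to 0.001, 0.0068 and 0.0007 without p.254I replicate 3, p.254V replicate 2 and p.284R replicate 2, and was lowest, at -0.0149, without p.254V replicate 3. Dars in M2 went to 0.0095 and 0.0065 without p.254I replicates 4 and 5, and was lowest, at -0.0327, without p.254I replicate 2. Tars2 in M1 against M2 went to -0.0209 and -0.0023 without p.254I replicate 3 and p.254V replicate 5, with 0.0382 at most. Ears2 in M1 passed without p.284R replicate 5 (0.1448, adjusted p = 0.0446, edgeR). Phgdh in M1 passed without p.254I replicate 5 (0.5401, adjusted p = 0.0212, edgeR), and in M1 against M2 it did not pass by limma-voom (0.447) or without replicate 2 of any genotype. Farsa in M1 against M2 passed without replicate 2 of p.254I, p.254V or p.284R (0.1067, 0.1041 and 0.1133). Nars in M1 did not pass with at least 10 counts (0.0548). The cause of these changes was not tested. Within a gene, dividing by length alters no ratio and gave no separate value. At these depths Chac1 and Phgdh have the widest errors.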

Other observations

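The genes for the cytosolic and the mitochondrial tryptophan enzyme parted in M1. The ratio of Wars to Wars2 CPM within a library was 5.72 to 8.31 in M0, 48.9 to 92.5 in M1 and 4.99 to 9.26 in M2, so M1 lay apart and M0 and M2 overlapped. Rars and Dars, whose products both sit in the multi-synthetase complex, also changed relative to each other. Their ratio was 0.555 to 0.998 in M0, 1.46 to 1.77 in M1 and 1.77 to 2.36 in M2, above M0 in all polarized libraries. These ratios are not divided by length, so they are read only between polarizations, and they were noticed in these data and not tested.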
